A study of Mus musculus with 6 samples.

Results

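The interleukin-6 (IL-6) family was examined through 10 genes of the deposited expression table, which lists 26110 genes. They were chosen by symbol: the ligands Il6, Lif, Osm and Il11, the receptor chains Il6ra, Il6st, Lifr and Osmr, the transcription factor Stat3 and its feedback inhibitor Socs3. Bulk RNA sequencing had been done on immune cells sorted from the muscularis externa (ME), the smooth muscle layer of the small bowel wall with its nerve plexus and resident leukocytes. The study addressed postoperative ileus, the loss of gut motility after abdominal surgery, and compared the sorted populations to learn which of them could give rise to the cytokine response. All 6 libraries came from naive, unoperated female mice of genotype CX3CR1+/GFP, in which 1 allele of the fractalkine receptor gene Cx3cr1 is replaced by green fluorescent protein (GFP), so that GFP reports activity of the Cx3cr1 promoter and every cell compared carries the same heterozygous allele. Cells with high surface MHC class II were separated by GFP into a CX3CR1- population (3 libraries) and a CX3CR1+ population (3 libraries). The labels call both populations dendritic cells, whereas the study's text treats them as macrophages. The ME of several mice was pooled for a sort, and no source used here says whether each library had a pool of its own, so that p-values measure the spread between these libraries, which may be technical.

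IL-6 family cytokines signal through receptors that share the chain gp130, encoded by Il6st. IL-6 binds gp130 together with the IL-6 receptor (Il6ra), which can also act in a soluble form on cells that lack it. LIF binds gp130 with the LIF receptor (Lifr), and oncostatin M (Osm) binds gp130 with its own receptor (Osmr). The receptors activate Janus kinases (JAK), which phosphorylate STAT3. STAT3 then induces, among others, Socs3, whose product binds gp130 and shuts the signal off. In the gut wall these cytokines are known from inflammation, wound repair and acute phase responses, and IL-6 is a widely used read-out of inflammation of the ME after surgery.

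Sequencing depth came to between 5346381 and 17616761 reads, estimated from the smallest step between values in each library. Mitochondrial transcripts took 51.7 ± 3.76% of the summed values of the CX3CR1- libraries and 19.6 ± 1.55% in the CX3CR1+ libraries (SD, n = 3 each). The first principal component, with 64.2% of the variance, separated the populations, and the second, with 14.4%, set CX3CR1- replicate 2 (-94.7) apart from CX3CR1- replicates 1 and 3 (41.7 and 54.1). The sorted gene itself, Cx3cr1, lay between 18.9 and 28.5 in the CX3CR1- libraries and between 347 and 380 in the CX3CR1+ libraries. The list of 8 macrophage markers includes Cx3cr1, whose direction was set by the sort. All 8 were lower in CX3CR1- cells, the others being Csf1r, Adgre1, C1qa, C1qb, C1qc, Mertk and Fcgr1. Their sum, Cx3cr1 included, was 5397 to 6262 against 30762 to 35063. All 8 markers of conventional dendritic cells were higher, with 3563 to 4047 against 211 to 281. The defining markers of dendritic cells, Flt3 and Zbtb46, and of macrophages, Csf1r and Adgre1, were above 0 in every library. The CX3CR1- libraries also held more of all 8 fibroblast, all 8 epithelial and all 5 B and plasma cell markers, with sums of 5290 to 16063, 15794 to 26921 and 1388 to 3586, against 213 to 367, 23.1 to 50.4 and 22.2 to 30.2. None of the 6 smooth muscle markers passed the test, and 4 of 6 endothelial markers were higher, with sums of 772 to 1021 against 346 to 612. Of 6 markers of enteric glia and neurons 3 were called higher, namely Sox10, S100b and Gfap, with sums of 144 to 490 against 86.3 to 88.4. The sums of T and NK cell markers (285 to 297 against 63.5 to 129) and of eosinophil markers (21.5 to 80.3 against 3.19 to 6.86) did not overlap either. Of 6 T and NK cell markers only 2 were tested. Cd2 was called higher, with means of 164 ± 38.8 and 1.39 ± 0.637 (SD, n = 3 each). Cd3d overlapped, with means of 83.5 ± 25.3 and 82.3 ± 36.6 (SD, n = 3 each). Of the eosinophil markers only Siglecf was tested, and it was called higher, with means of 37.5 ± 27.2 and 3.05 ± 1.31 (SD, n = 3 each). Its call was lost under quantile normalization and without any 1 library other than CX3CR1- replicate 3. Means in CX3CR1+ cells were under 10 for Cd2, Siglecf, Itgae, Pdgfrb, Cdh5, Tek and Sox10. The same held for all epithelial markers but Vil1 and all B and plasma cell markers but Ms4a1 and Jchain. These reached the mean of 10 needed for a test only through CX3CR1- cells, which favours calls in that direction. Among the defining markers, Epcam of epithelium, Cd79a of B cells and Cd3e of T cells were at 0 in at least 1 library, and none was at 0 in all 6.

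In what follows a value is the authors' normalized expression value, and a difference is the log2 fold change of CX3CR1- over CX3CR1+ cells on the log2(value + 1) scale from limma, so that positive differences mean more transcript in CX3CR1- cells. A gene was called changed when it differed at least 2-fold at a Benjamini-Hochberg (BH) adjusted p of 0.05 or below over all 17812 genes tested, which needed a mean value of 10. Of the 10 family genes 9 were tested, each with a mean above 10 in both populations, and Il11 fell under the filter. Il6 and Osmr were called higher in CX3CR1- cells, 2 of 9 beside 12.2% of all tested genes, and Osm was called lower, 1 of 9 beside 8.15%. Dropping the demand on fold left 2 higher (13.3% of all genes) and 4 lower, the latter being Osm, Socs3, Stat3 and Il6ra (11.0% of all genes). The 3 CX3CR1- libraries did not overlap the 3 CX3CR1+ libraries for 6 genes, 2 higher (20.3% of all genes) and 4 lower (19.8%). The exact two-sided permutation test gave p = 0.1 for each of these 6 genes, the smallest value that 3 against 3 libraries allow. The median difference was -0.57 over the 9 tested members and -0.00 over all tested genes. Since the counts are small, the description below goes member by member.

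**Figure D1:**
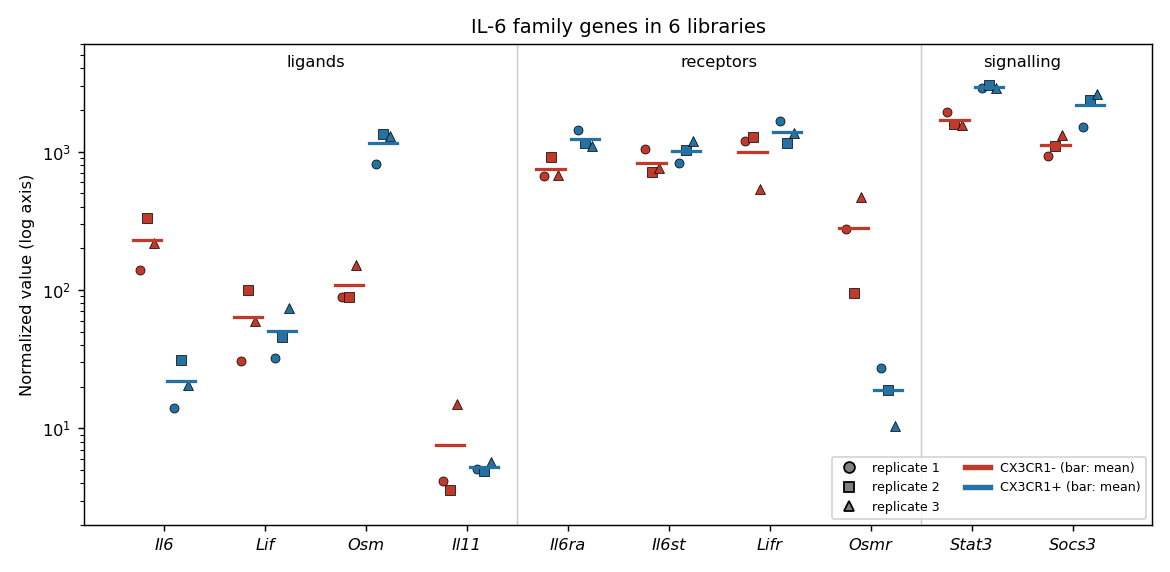
Normalized values (log axis) of the 10 genes in each of the 6 libraries, CX3CR1- in red and CX3CR1+ in blue, with the replicate given by the symbol and the mean by a bar. Il6 and Osmr lay higher in all 3 CX3CR1- libraries and Osm lay higher in all 3 CX3CR1+ libraries, while Lif, Il6st and Lifr overlapped.

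Among the ligands, Il6 and Osm went in opposite directions. Il6, the founding cytokine of the family, had values of 139, 331 and 217 in CX3CR1- replicates 1, 2 and 3 and of 13.9, 31.3 and 20.7 in CX3CR1+ replicates 1, 2 and 3. Every CX3CR1- library exceeded every CX3CR1+ library, and CX3CR1- replicate 2 held the most. The means were 229 ± 96.5 and 22.0 ± 8.74 (SD, n = 3 each), a 10.4-fold ratio. The fitted difference was 3.31 with a 95% interval of 2.41 to 4.21 (limma, BH adjusted p = 2.49e-04). It was 3.00 without CX3CR1- replicate 2, the library that stood apart (limma, BH adjusted p = 0.00171). In these bulk libraries fewer cells of a type and less RNA per cell cannot be told apart, for this and for every other member. The higher Il6 values came with higher marker sums of dendritic cells, fibroblasts, epithelium, endothelium, B cells, glia, T cells and eosinophils, given above. The part of those cells in the Il6 difference was not tested. Of the CX3CR1- libraries, replicate 2, with most Il6, had the highest B and plasma cell (3586), dendritic cell (4047), macrophage (6262) and eosinophil (80.3) sums. The same library had the lowest fibroblast (5290), glial and neuronal (144), endothelial (772), smooth muscle (918), mesothelial (33.5) and interstitial cell of Cajal (350) sums. This is an order of 3 libraries, and the source of Il6 was not tested.

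The Il6 gene lies at chr5:30013114-30019981 on the plus strand (GRCm38, GENCODE M21), and none of its transcripts' 31-base words occurred in another gene, so its reads are not shared with a near copy. The stretch upstream of its start is shown because it holds letters matching the motifs of transcription factors whose own transcripts were measured here. It covers chr5:30012864-30013113, the 250 bases before the RefSeq start (GRCm38.p6, plus strand), in which capitals mark, from left to right, a match to AP-1, a match to C/EBP and a match to the NF-kB consensus.
Il6 upstream: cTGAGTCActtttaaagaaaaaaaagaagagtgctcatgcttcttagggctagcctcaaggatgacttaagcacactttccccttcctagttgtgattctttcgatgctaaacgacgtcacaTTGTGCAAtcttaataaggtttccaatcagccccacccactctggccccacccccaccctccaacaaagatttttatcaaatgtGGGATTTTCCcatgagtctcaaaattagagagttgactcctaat
The motifs searched on both strands were TGACTCA for AP-1, TTGNGCAA for C/EBP and the NF-kB consensus, and the 3 matches do not overlap. They occurred in 5.20%, 2.94% and 8.46% of 32851 RefSeq windows of 300 bases, which run from 250 bases before to 50 bases after each start. The matches begin 249, 128 and 44 bases before the start. Among the 9 members with a window in that table, the AP-1 letters were also in Lif and Il11, the NF-kB letters also in Lif, and the C/EBP letters in Il6 alone.

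The transcripts of 9 regulators that are known to act on Il6 transcription or on Il6 mRNA were lower in CX3CR1- cells, the population with more Il6. All 9 passed the adjusted p in that direction, beside 11.0% of all genes, and 4 of them at 2-fold or more, beside 8.15%. The list median was -0.97. Cebpb, which encodes the C/EBP beta factor first described as a nuclear factor for IL-6, had values of 129, 197 and 231 in CX3CR1- cells and 688, 988 and 993 in CX3CR1+ cells, a difference of -2.27. Atf3, a stress-induced repressor of inflammatory genes, differed by -2.02 and was 1340, 1205 and 1877 against 5570, 6288 and 5796. Nfkbiz, a nuclear co-activator of NF-kB at secondary response genes, differed by -1.56. Zfp36, which encodes tristetraprolin, a protein that marks AU-rich mRNAs for decay, had means of 22606 ± 514 in CX3CR1- and 58252 ± 3544 in CX3CR1+ cells (SD, n = 3 each), a difference of -1.36. The NF-kB subunit genes Nfkb1 and Rela differed by -0.97 and -0.86. Among the genes of mRNA stability, Arid5a, a stabiliser of Il6 mRNA, differed by -0.89, and Rc3h1 and Zc3h12a, which encode the mRNA-degrading factors Roquin-1 and Regnase-1, differed by -0.71 and -0.70. In none of the 9 genes did the populations overlap, beside 19.8% of all genes without overlap in this direction. The summed macrophage markers were lower in the same libraries, and their part in these differences was not tested.

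Oncostatin M, a cytokine made mainly by activated myeloid cells, showed the reverse. Osm values were 88.6, 89.3 and 150 in CX3CR1- replicates 1, 2 and 3 and 819, 1344 and 1297 in CX3CR1+ replicates 1, 2 and 3. The highest CX3CR1- library was far below the lowest CX3CR1+ library. With means of 109 ± 35.5 and 1153 ± 290 (SD, n = 3 each), the fitted difference was -3.40 with a 95% interval of -4.02 to -2.77 (limma, BH adjusted p = 2.09e-05), 10.5-fold by both the means and the fit. The summed macrophage markers moved the same way, with 5397 to 6262 in CX3CR1- and 30762 to 35063 in CX3CR1+ libraries, and their part in the Osm difference was not tested. Put against Il6 within each library, Osm values were 0.270 to 0.694 times those of Il6 in CX3CR1- cells and 43.0 to 62.8 times in CX3CR1+ cells, as follows from their opposite differences.

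Lif, a cytokine related to oncostatin M, is the gene next to Osm. Osm (chr11:4236420-4241026) and Lif (chr11:4257557-4272514) both lie on the plus strand of GRCm38 with 16530 bases and no annotated gene between them. Lif values were 30.6, 99.5 and 59.5 in CX3CR1- cells and 32.3, 45.6 and 74.5 in CX3CR1+ cells, and the populations overlapped. The fitted difference was 0.24 with a 95% interval of -0.82 to 1.29 (limma, BH adjusted p = 0.762), which includes a 2-fold rise. Its sign turned without CX3CR1- replicate 2 (-0.16) or CX3CR1+ replicate 1 (-0.040). The ratio of Osm to Lif, which compares the neighbours inside each library, was 0.897 to 2.89 in CX3CR1- cells and 17.4 to 29.4 in CX3CR1+ cells (exact two-sided permutation test, p = 0.1, n = 3 per group).

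Il11, a cytokine known from stromal cells, was close to the limit of detection. Its values were 4.17, 3.58 and 15.0 in CX3CR1- cells and 5.09, 4.92 and 5.67 in CX3CR1+ cells, where 3 reads are worth 1.39 to 5.36 depending on the library. It had too little signal for a test, and CX3CR1- replicate 3 had the highest value, with no replicate near it.

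Of 8 further ligands of the family fixed as a list, 6 were in the table and 4 could be tested. Of these 1 was called higher and 1 lower, beside 12.2% and 8.15% of all genes. Clcf1, a cardiotrophin-like cytokine that acts through the ciliary neurotrophic factor receptor, was 254, 197 and 198 in CX3CR1- and 48.0, 41.1 and 82.2 in CX3CR1+ cells, a difference of 1.96 (limma, BH adjusted p = 0.00123). Ebi3, a subunit shared by IL-27 and IL-35, was 34.4, 68.0 and 168 against 214, 239 and 222, a difference of -1.60 (limma, BH adjusted p = 0.0316). The spread of Ebi3 among the CX3CR1- libraries was wide, and its call was lost without CX3CR1- replicate 1 or 2 or any CX3CR1+ library, with a BH adjusted p from limma of up to 0.0980 over all alternatives. The call was also lost with equal totals without mitochondrial genes and without an intensity trend. Cntf differed by 1.06 (95% interval 0.18 to 1.95) and did not pass (limma, BH adjusted p = 0.0812). Il27, the partner of Ebi3 in IL-27, was under the filter, with values of 0, 0 and 3.99 in CX3CR1- and 8.79, 9.02 and 9.92 in CX3CR1+ cells.

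**Figure D2:**
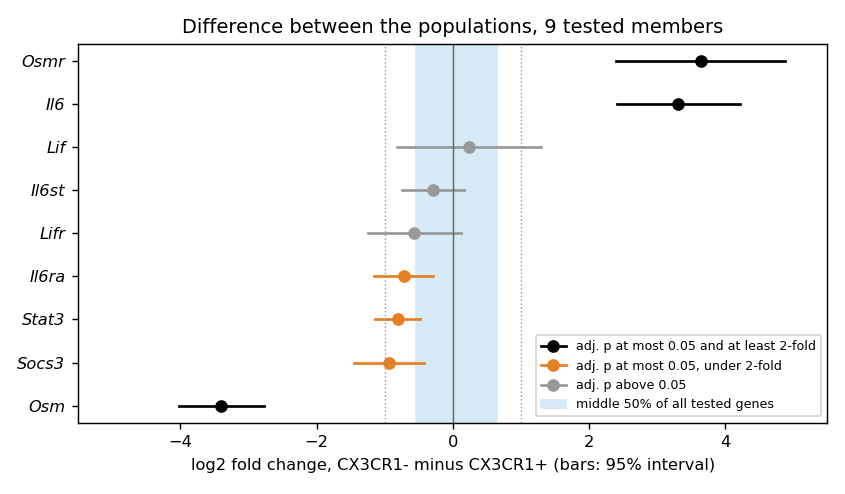
Log2 fold change of CX3CR1- over CX3CR1+ cells (x axis, bars for the 95% interval) for the 9 tested members, with a shaded band for the middle 50% of all tested genes. Osmr at 3.64, Il6 at 3.31 and Osm at -3.40 lie far outside the band, and the intervals of Lif, Il6st and Lifr include 0.

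Among the receptor chains, Osmr stood out and the other chains were within 2-fold. Osmr, the ligand-specific chain of the oncostatin M receptor, had values of 274, 95.4 and 466 in CX3CR1- replicates 1, 2 and 3 and of 27.2, 19.0 and 10.3 in CX3CR1+ replicates 1, 2 and 3. It was higher in every CX3CR1- library, and it had the widest range of all members among these, 4.88-fold. The means were 279 ± 185 and 18.8 ± 8.43 (SD, n = 3 each), and the fitted difference was 3.64 with a 95% interval of 2.40 to 4.88 (limma, BH adjusted p = 9.76e-04). Leaving out CX3CR1- replicate 2, the lowest of its group, raised it to 4.27. The Osmr values had the same order over all 6 libraries as the summed fibroblast markers, of which 8 of 8 were higher in CX3CR1- cells. That sum was 9446, 5290 and 16063 in CX3CR1- replicates 1, 2 and 3 and 367, 305 and 213 in CX3CR1+ replicates 1, 2 and 3, with the defining markers Pdgfra and Col1a1 above 0 in every library. In CX3CR1+ replicates 1, 2 and 3 Osmr came from about 58.7, 23.2 and 7.27 reads. The interstitial cell of Cajal sum had the order of Osmr among the CX3CR1- replicates (866, 350 and 1135). Among the CX3CR1+ replicates (691, 450 and 511) it did not. The part of fibroblasts or of interstitial cells of Cajal in the Osmr difference was not tested. Per 1000 of the fibroblast sum, Osmr was 18.0 to 29.0 in the CX3CR1- libraries and 48.3 to 74.0 in the CX3CR1+ libraries, the other direction from the Osmr value itself.

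Osm values were thus higher in the CX3CR1+ libraries and Osmr values in the CX3CR1- libraries, which also held more fibroblast transcripts. Osmr is located at chr15:6813577-6874969 on the minus strand and Lifr, on the same chromosome, at chr15:7090614-7197489 on the plus strand (GRCm38). Within each library Osmr was 0.0749 to 0.871 times Lifr in CX3CR1- and 0.00750 to 0.0164 times Lifr in CX3CR1+ cells.

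The LIF receptor and gp130 chains did not pass the test. Lifr was 1188, 1274 and 535 in CX3CR1- cells and 1661, 1159 and 1373 in CX3CR1+ cells, and the populations overlapped. Its fitted difference was -0.57 with a 95% interval of -1.25 to 0.11 (limma, BH adjusted p = 0.218). Il6st was 1037, 707 and 757 in CX3CR1- and 830, 1032 and 1187 in CX3CR1+ cells, again with overlap. The interval of its difference, -0.75 to 0.17 around -0.29, leaves out a change of 2-fold (limma, BH adjusted p = 0.359).

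The ligand-binding IL-6 receptor chain was lower in the cells with more Il6. Il6ra was 664, 918 and 674 in CX3CR1- and 1442, 1160 and 1100.0 in CX3CR1+ cells, so that each CX3CR1+ library held more. The means were 752 ± 144 and 1234 ± 183 (SD, n = 3 each), a difference of -0.72 with a 95% interval of -1.15 to -0.29 (limma, BH adjusted p = 0.0210). The adjusted p did not hold in every subset of libraries. Without CX3CR1- replicate 1 or 3 the adjusted p from limma with BH was 0.0667 or 0.0577, and without CX3CR1+ replicate 1 or 2 it was 0.0974 or 0.0584. An antisense gene, Gm42809, overlaps Il6ra at chr3:89864059-89913196, and because the library kit does not keep strand, the 3.17% of 31-base words that Il6ra shares with other genes, Gm42809 among them, cannot be assigned to Il6ra alone. The ratio of Il6st to Il6ra overlapped between the populations, 0.771 to 1.56 against 0.576 to 1.08 (exact two-sided permutation test, p = 0.4, n = 3 per group).

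Of 4 other receptor genes that pair with gp130 or belong to the same class, 3 were tested. Of these 2 were called higher, beside 12.2% of all genes. Both passed the filter only through CX3CR1- cells, with CX3CR1+ means of 2.39 for Il27ra and 3.55 for Cntfr. That favours calls in this direction, so nothing is read from their count. Il27ra, the IL-27 receptor subunit, had the largest difference of all 62 pathway genes tested, 4.37 (95% interval 3.12 to 5.63, limma, BH adjusted p = 3.38e-04). Its values were 83.1, 97.4 and 37.8 against 3.26, 2.48 and 1.43, the latter near the worth of 3 reads, and with 10 instead of 1 added before taking logs the difference was 2.66. Cntfr, the ciliary neurotrophic factor receptor chain, was 20.1, 12.0 and 48.2 against 3.21, 2.02 and 5.42 (difference 2.46, or 1.33 with 10 added, limma, BH adjusted p = 0.0282 for the former), and its call was lost without CX3CR1- replicate 3 or any CX3CR1+ library, with an adjusted p of up to 0.0993 over all alternatives. Under quantile normalization Cntfr lost its call too. Il11ra1, the IL-11 receptor, differed by 0.14 (95% interval -0.71 to 0.99). Among 4 genes of receptor shedding, the proteolytic release that yields soluble IL-6 receptor, Adam17 (means 604 ± 189 against 1828 ± 186, SD, n = 3 each) and its maturation factor Rhbdf2 (98.7, 136 and 112 against 304, 397 and 374) were lower in CX3CR1- cells, by -1.64 and -1.63. Adam10 and Rhbdf1 did not pass, so that 2 of these 4 genes were called lower, beside 8.15% of all genes.

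Stat3, the transcription factor downstream of gp130, was abundant in both populations and lower in CX3CR1- cells. It was 1926, 1584 and 1545 in CX3CR1- and 2901, 3035 and 2883 in CX3CR1+ cells, with no overlap and with a coefficient of variation of 2.83% in the CX3CR1+ group. The means were 1685 ± 210 and 2940 ± 83.2 (SD, n = 3 each), a difference of -0.81 with a 95% interval of -1.14 to -0.48 (limma, BH adjusted p = 0.00281). The change stayed under 2-fold and passed without any 1 library, but under quantile normalization it was -0.35 and did not pass (limma, BH adjusted p = 0.101). Stat3 (chr11:100885098-100939540, minus strand) overlaps the end of Stat5a on the other strand, and 2.36% of its 31-base words occur in other genes, Stat5a among them.

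Socs3, a target of STAT3 and inhibitor of gp130, differed by a similar amount in the same direction. Its values were 924, 1099 and 1327 in CX3CR1- and 1502, 2377 and 2623 in CX3CR1+ cells. No library of the former group reached the lowest of the latter. The means were 1116 ± 202 and 2168 ± 590 (SD, n = 3 each), a difference of -0.93 with a 95% interval of -1.44 to -0.42 (limma, BH adjusted p = 0.0143). The BH adjusted p from limma missed the threshold at 0.0590 without CX3CR1- replicate 1, at 0.0646 without CX3CR1+ replicate 2 and at 0.0708 without CX3CR1+ replicate 3. Without CX3CR1- replicate 3 or CX3CR1+ replicate 1, on the other hand, the difference passed 2-fold and Socs3 was called lower as well. The ratio of Socs3 to Stat3 inside a library overlapped, 0.480 to 0.859 in CX3CR1- and 0.518 to 0.910 in CX3CR1+ cells (exact two-sided permutation test, p = 0.7, n = 3 per group).

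A stretch before the RefSeq start of Socs3 is shown for its STAT motif, since Socs3 and Stat3 were lower together. GENCODE M21 places the Socs3 gene at chr11:117966079-117970047 on the minus strand, with a start further upstream than that of RefSeq, so the stretch lies inside the GENCODE gene but outside its exons. The stretch printed is chr11:117969452-117969616 (GRCm38.p6, minus strand, RefSeq window), 165 bases, with capitals on the match to TTCNNNGAA.
Socs3 before the RefSeq start: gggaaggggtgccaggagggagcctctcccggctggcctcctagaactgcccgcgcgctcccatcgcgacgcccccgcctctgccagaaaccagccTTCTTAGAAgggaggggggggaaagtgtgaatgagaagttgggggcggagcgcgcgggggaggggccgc
The match begins 154 bases before the RefSeq start. These letters, which read the same pattern on both strands, occurred in 8.30% of the 32851 windows and in no other member's window. A match is a description of letters and no measurement of binding.

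Since gene lengths differ, levels were compared between members per kilobase of the principal transcript. In CX3CR1- cells the order was Socs3 (437 ± 79.2 per kilobase, SD, n = 3), Stat3 (373 ± 46.4), Il6ra (225 ± 43.0), Il6 (201 ± 84.5), Lifr (103 ± 41.8), Il6st (96.1 ± 20.5), Osmr (50.7 ± 33.8), Osm (48.2 ± 15.6), Lif (15.7 ± 8.59) and Il11 (3.88 ± 3.29). Among neighbours in this order the libraries overlapped for every pair except Stat3 above Il6ra and Osm above Lif. In CX3CR1+ cells the order per kilobase was Socs3 (849 ± 231), Stat3 (651 ± 18.4), Osm (508 ± 128), Il6ra (369 ± 54.7), Lifr (145 ± 26.1), Il6st (117 ± 20.6), Il6 (19.2 ± 7.66), Lif (12.6 ± 5.36), Osmr (3.43 ± 1.54) and Il11 (2.68 ± 0.20). Here the libraries overlapped between Socs3 and Stat3, Osm and Il6ra, Lifr and Il6st, Il6 and Lif, and Osmr and Il11, and not between the other neighbours. Osm was thus eighth among the members in CX3CR1- and in the third place in CX3CR1+ cells. The order depends on which transcript gives the length. By the longest transcript Il6ra was in place 6 in CX3CR1- cells and Osm in place 2 in CX3CR1+ cells. By the median transcript Stat3 stood above Socs3 and Il6st was in place 3 in CX3CR1- cells, and Osmr stood below Il11 in CX3CR1+ cells.

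**Figure D3:**
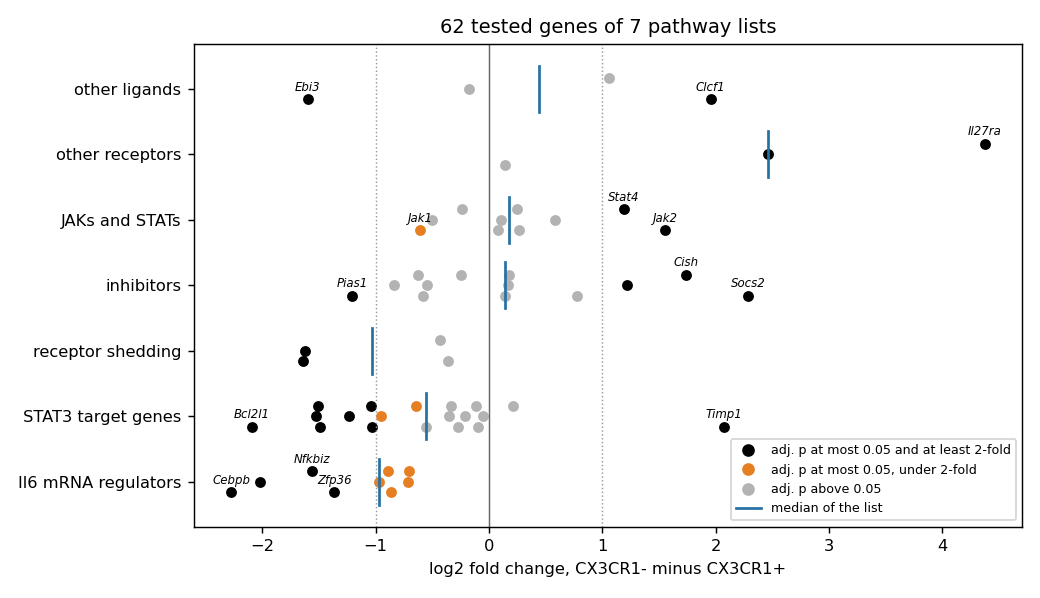
Log2 fold change of CX3CR1- over CX3CR1+ cells (x axis) for the 62 tested genes of 7 lists of the pathway, 1 point per gene, black where called, orange where only the adjusted p passed, with a blue line at each list's median. All 9 regulators of Il6 lie left of 0, the receptor list has its median at 2.46 over 3 genes, and the lists of kinases and of inhibitors spread over both sides. Il27ra and Cntfr, in the receptor list, passed the filter only through CX3CR1- cells.

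Over the 7 lists of other genes of the pathway, 69 genes with 62 tested, 9 were called higher and 15 lower in CX3CR1- cells, and without regard to fold 9 were higher and 23 lower, beside the background shares given above. Of the higher ones, Il27ra, Cntfr and Timp1 passed the filter only through CX3CR1- cells. The list median was -0.36. Of the 10 Janus kinase and STAT genes, 2 were called higher, beside 12.2% of all genes. Jak2, a kinase of gp130 and of many cytokine receptors, was 1297, 1061 and 1058 against 332, 444 and 387, a difference of 1.55 (limma, BH adjusted p = 2.20e-04). Stat4, known from IL-12 signalling, differed by 1.19 and lost its call without any CX3CR1- library or CX3CR1+ replicate 1 or 2, with a BH adjusted p from limma of up to 0.109 over all alternatives. Quantile normalization and a fit without an intensity trend also removed the call of Stat4. Jak1, the kinase most closely tied to gp130, went the other way, at 1326, 1440 and 1274 against 2222, 2092 and 1856, a difference of -0.61 that passed under 2-fold (limma, BH adjusted p = 0.0140).

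Of 13 inhibitors tested besides Socs3, 3 were called higher and 1 lower, beside 12.2% and 8.15% of all genes. Socs2 and Cish, SOCS genes known as targets of STAT5, were higher in CX3CR1- cells, Socs2 at 98.1, 166 and 169 against 19.7, 38.9 and 28.4 (difference 2.29) and Cish at 124, 284 and 175 against 37.8, 64.5 and 65.8 (difference 1.74). These stood in the direction opposite to Socs3. Socs6 differed by 1.22 and Pias1, which encodes a protein inhibitor of activated STAT, by -1.21. Socs6 lost its call without CX3CR1- replicate 1 or 2 or CX3CR1+ replicate 1 or 3, and Pias1 without CX3CR1- replicate 1 or 3 or CX3CR1+ replicate 1 or 3, with BH adjusted p values from limma of up to 0.106 and 0.0942 over all alternatives. Without an intensity trend both lost their calls, and Pias1 also did so under quantile normalization. Socs1 was under the filter, at 14.6, 0 and 15.0 against 18.5, 6.56 and 4.25.

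Of 19 tested genes that STAT3 is known to induce in various cells, 7 were called lower in CX3CR1- cells, beside 8.15% of all genes. Called higher was 1, beside 12.2%, and 9 were lower at any fold, beside 11.0%. Under quantile normalization 3 were called lower and 0 higher, and with equal totals without mitochondrial genes 5 and 1. The summed macrophage markers were lower in the same libraries, and their part was not tested. Those lower included Bcl2l1, a survival gene (93.1, 38.1 and 86.1 against 275, 316 and 283, difference -2.09), Gadd45b, a stress gene (difference -1.52), Ccnd1, encoding cyclin D1 (692, 680 and 642 against 2094, 1854 and 1794, difference -1.51), and Pim1, a survival kinase (difference -1.49). Il4ra, Mcl1 and Junb differed by -1.23, -1.04 and -1.03, and these genes and Pim1 fell under 2-fold with quantile normalization. Mcl1 and Junb also did so with equal totals without mitochondrial genes and without CX3CR1+ replicate 2. The same held for Mcl1 without CX3CR1- replicate 1, Il4ra without CX3CR1- replicate 2 and Junb without CX3CR1- replicate 3. Timp1, a metalloproteinase inhibitor that stromal cells also make, was higher at 40.6, 16.3 and 15.2 against 3.75, 3.90 and 5.74 (difference 2.07, or 1.16 with 10 added), and lost its call without CX3CR1- replicate 1 or any CX3CR1+ library and with libraries blocked by adjacent library numbers, with a BH adjusted p from limma of up to 0.112 over all alternatives. Others of the list gave no call, among them Myc (difference -0.057, 95% interval -0.70 to 0.58), Fos (-0.33, -0.77 to 0.10) and Hif1a (-0.11, -0.57 to 0.34). Many of these genes are also induced by other signals, and all are listed here by textbook knowledge, not by binding in these cells.

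**Figure D4:**
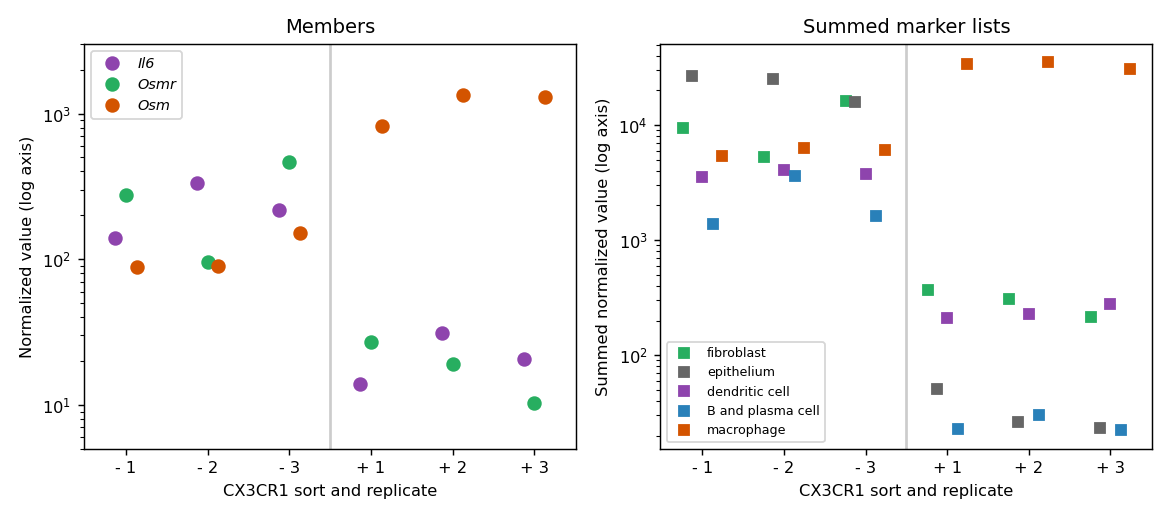
Values of Il6, Osmr and Osm (left, log axis) and summed values of 5 marker lists (right, log axis) in each library, with - for CX3CR1- and + for CX3CR1+ and the replicate number. Osmr and the fibroblast sum have the same order over the 6 libraries, from 466 and 16063 in CX3CR1- replicate 3 down to 10.3 and 213 in CX3CR1+ replicate 3.

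To place the members among all genes, the 5 nearest profiles were taken by the Euclidean distance between mean-centred log2(value + 1) values over the 6 libraries. This was planned for Il6 and Socs3 and extended to Osm and Osmr after their values were seen. Nearest to Il6 were Igf2r (distance 0.506), Tnfrsf18, Aqp9, Xcr1 and Slc4a8 (0.769). Xcr1, a chemokine receptor that marks a class of dendritic cells, had values of 258, 426 and 335 in CX3CR1- and 27.8, 46.8 and 52.4 in CX3CR1+ cells. Tnfrsf18 encodes the co-stimulatory receptor GITR and stood at 23.8, 53.3 and 27.1 against 0.748, 2.91 and 2.36. Nearest to Osmr were Aspn (0.381), Igfbp7, Rarres2, C1qtnf3 and Gdf10 (0.809), of which Aspn, a small leucine-rich matrix proteoglycan, had values of 112, 51.9 and 213 against 10.2, 7.39 and 4.23.

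Nearest to Osm were Tlr2 (0.455), Rcbtb2, Plau, P2ry13 and Arl4c (0.690). Tlr2, a receptor for bacterial lipoproteins, had values of 159, 218 and 325 in CX3CR1- and 2067, 2636 and 2435 in CX3CR1+ cells. Nearest to Socs3 were Man2c1 (0.237), Gm44443, Snhg14, Nfkb2 and Pim3 (0.294), of which Nfkb2, an NF-kB subunit gene, stood at 153, 176 and 226 against 244, 384 and 348. With 6 libraries in 2 groups, likeness of profile mostly reflects a shared difference between the groups.

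**Figure D5:**
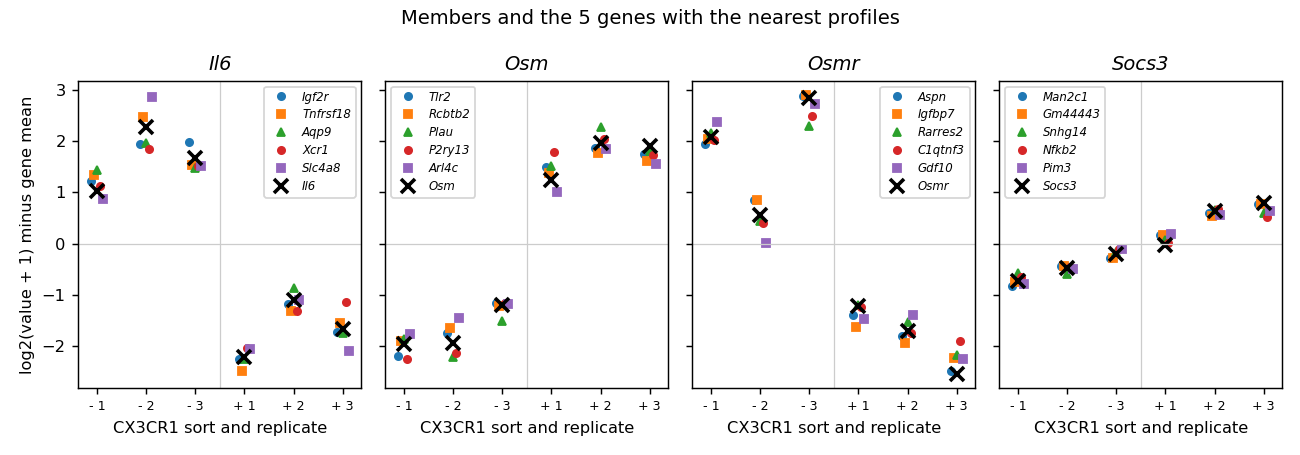
Mean-centred log2(value + 1) of Il6, Osm, Osmr and Socs3 (crosses) and of the 5 genes nearest to each (coloured symbols) in each of the 6 libraries. Il6 is highest in CX3CR1- replicate 2 and Osmr in CX3CR1- replicate 3, and the genes nearest to each were chosen for following its profile.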

How the data were processed

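Naive mouse cells were sorted from the ME, and RNA extracted with TRIzol was sequenced as single 75 bp reads from TruSeq RNA libraries, which keep no strand. The authors quantified transcripts with kallisto against GENCODE (mouse build mm10), summed them with tximport and deposited values normalized by DESeq2, a signal without whole counts. Only 43.9% to 45.9% of values were whole multiples of what 1 read is worth (tolerance 0.02), so no count test was run. Groups were taken from the sample titles. The 6 libraries were fitted in R 4.3.3 with limma 3.58.1 (empirical Bayes with an intensity trend) on log2(value + 1), for 17812 of 26110 genes with a mean of at least 10, and p-values were BH adjusted over all tested genes. The fit was tested on simulated data. Replicates were numbered by library number. These numbers form adjacent couples of both populations, but no label states a pairing, so the couples were used as a block only in an alternative fit. Figures were drawn with matplotlib 3.10.9.

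The members, pathway lists and marker lists were chosen with earlier results of these data known. Named were all 10 members, the counts and the largest called differences of each pathway list, and the 5 profiles nearest to Il6 and Socs3. Alternatives were pseudocounts of 0.5 and 10, scaling by median-of-ratios, by quantiles or to equal totals without mitochondrial genes, no filter or a stricter one at a mean of 50, no intensity trend, library quality weights, and leaving out each library. Positions come from GENCODE M21 and promoter windows from RefSeq (both GRCm38), where 9 of 10 members matched, Osm being the one left. Marker lists of mast cells and neutrophils were not analysed here.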

Additional observations from a re-analysis of the deposited data

How the results depend on the processing

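Over 16 alternatives Il6, Osm and Osmr kept their direction and their call, with log2 differences of 2.86 to 3.62, -3.65 to -3.23 and 3.12 to 4.27. Quantile normalization moved the median of all genes to -0.15 and equal totals without mitochondrial genes moved it to 0.16. Under quantile normalization Il6ra (-0.40, adjusted p 0.166), Stat3 (-0.35, adjusted p 0.101) and Socs3 (-0.55, adjusted p 0.103) no longer passed, Il6st turned to 0.058 and Lif to -0.042, where the differences from the median of all genes were -0.25, -0.20, -0.40, 0.21 and 0.11. Without an intensity trend Il6ra (-0.72, adjusted p 0.0998) and Socs3 (-0.93, adjusted p 0.0808) did not pass. The cause of these losses was not tested. With each library left out in turn, Il6ra ranged from -0.87 to -0.60, Socs3 from -1.18 to -0.77, Stat3 from -0.91 to -0.75 and Lif from -0.16 to 0.67, the members called lower numbered 1 to 2, and the other pathway genes called higher numbered 5 to 7, the 5 being without CX3CR1+ replicate 1. The adjusted p values are from limma with BH. Over all genes, quantile normalization called 1716 higher and 1674 lower and equal totals without mitochondrial genes 2487 and 1116, against 2177 and 1451. The labels state no pairing, but the library numbers in the titles form 3 adjacent couples, which carry the same replicate number here. A fit with these couples as a replicate block, chosen after seeing the data, gave 2165 genes higher and 1445 lower and kept every member on its side of the threshold (Il6 3.31, Osm -3.40, Osmr 3.64). Deviations from the group means correlated over genes at 0.104, 0.0380 and 0.0142 within the couples, and CX3CR1- replicate 3 correlated better with CX3CR1+ replicate 2 (0.0404) than with its own number. Estimated depth limits Il11, whose values came from about 2 to 15 reads.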
